A study of Mus musculus with 3 samples.

Results

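The S100 genes described here are 10 members of the S100 family of calcium-binding proteins (S100a3, S100a4, S100a6, S100a8, S100a9, S100a10, S100a11, S100a14, S100a16 and S100b), out of 19738 genes named on the arrays. Their probes were found through the RefSeq transcript given for each probe, which yielded 12 probes, 1 for 8 members and 2 for each of S100a4 and S100a16. The members were divided into a myeloid group (S100a4, S100a8 and S100a9), a broad group (S100a6, S100a10 and S100a11), an epithelial group (S100a3, S100a14 and S100a16) and S100b, a gene of glia and melanocytes. The cells were macrophages of normal mouse backskin, sorted as CD11b+ Gr1- F480+, from female mice of the outbred CD1 background with no treatment named, labelled postnatal day 42, 55 or 69. The study sampled early, mid and late telogen, the resting phase of the hair follicle, and its text dates the early sample slightly later than the label does. At each age the RNA of 3 littermates was pooled, amplified as a whole transcriptome and hybridized to 1 array in 1 color (Cy3). With 1 array at each age there is no spread between replicates and no test, and each difference below compares 2 arrays.

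S100 proteins are small, mostly dimeric proteins with EF-hand motifs, the helix-loop-helix folds that bind calcium. Binding of calcium opens a surface through which they contact other proteins, among them annexins, which bridge membranes, and myosin. S100a8 and S100a9 form calprotectin, the antimicrobial complex that neutrophils and monocytes carry in large amounts, while other S100 proteins are made in the layers of the epidermis or in the hair shaft. Most S100 genes lie on 1 chromosome, near genes of the epidermal barrier.

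RefSeq windows of 300 bases around the annotated start (build GRCm38.p6, 250 bases before it and 50 after) were at hand for 8 of the 10 members, 12 windows in all, and were searched on both strands for the letters of 4 motifs. These were the TATA box (TATAAA), the AP-1 site (TGANTCA), the C/EBP site (TTGCNNAA) and the PU.1 core (GAGGAA). Of all 32851 windows, 13.6% held the first, 7.81% the second, 10.8% the third and 28.3% the fourth. The windows of S100a4 and S100a11 are shown as members of the myeloid and broad groups that were higher together on 1 array, that of S100a3 as the gene that differed between the later arrays, and those of S100a8 and S100a9 as the genes of the 2 calprotectin subunits. Capitals mark the matches, which do not overlap each other, and TTCCTC is GAGGAA on the opposite strand.
S100a4 (chr3:90603520-90603819, plus strand): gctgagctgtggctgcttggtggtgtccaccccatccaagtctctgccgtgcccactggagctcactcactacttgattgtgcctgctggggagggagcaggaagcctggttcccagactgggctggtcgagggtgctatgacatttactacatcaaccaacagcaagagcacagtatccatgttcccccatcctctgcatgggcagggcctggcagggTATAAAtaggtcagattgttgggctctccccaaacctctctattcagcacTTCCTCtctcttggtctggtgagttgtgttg
S100a11 (chr3:93520246-93520545, plus strand): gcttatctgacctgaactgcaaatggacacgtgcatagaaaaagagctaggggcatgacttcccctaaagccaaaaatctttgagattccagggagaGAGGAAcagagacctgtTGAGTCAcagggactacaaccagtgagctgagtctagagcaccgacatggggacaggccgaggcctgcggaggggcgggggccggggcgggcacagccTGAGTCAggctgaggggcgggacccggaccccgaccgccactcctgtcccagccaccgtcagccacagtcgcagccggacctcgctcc
S100a3, the third of its 4 annotated starts (chr3:90588313-90588612, plus strand): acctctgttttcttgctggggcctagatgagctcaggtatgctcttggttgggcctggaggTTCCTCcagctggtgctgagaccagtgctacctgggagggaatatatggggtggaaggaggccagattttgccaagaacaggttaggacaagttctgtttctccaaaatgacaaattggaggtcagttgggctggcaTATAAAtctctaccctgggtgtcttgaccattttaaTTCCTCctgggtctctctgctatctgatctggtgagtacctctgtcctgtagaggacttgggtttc
S100a8 (chr3:90668821-90669120, plus strand): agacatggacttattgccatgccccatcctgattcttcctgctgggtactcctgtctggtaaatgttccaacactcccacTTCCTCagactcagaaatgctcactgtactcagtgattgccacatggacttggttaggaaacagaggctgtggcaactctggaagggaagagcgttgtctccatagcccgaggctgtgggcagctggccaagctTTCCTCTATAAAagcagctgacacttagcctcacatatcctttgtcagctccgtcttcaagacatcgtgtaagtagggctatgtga
S100a9 (chr3:90695672-90695971, minus strand): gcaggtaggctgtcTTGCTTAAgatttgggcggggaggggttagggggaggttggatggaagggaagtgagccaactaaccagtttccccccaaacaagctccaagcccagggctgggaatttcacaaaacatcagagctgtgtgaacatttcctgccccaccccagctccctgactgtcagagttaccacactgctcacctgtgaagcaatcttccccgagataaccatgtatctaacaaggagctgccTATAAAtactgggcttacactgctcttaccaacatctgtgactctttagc
TATAAA began at position -31 from the annotated start of S100a4, at -30 for S100a8, at -52 for this start of S100a3 and at 1 for S100a9, where 1 is the first transcribed base. S100a11 had no such match and held TGAGTCA at -136 and -38. The C/EBP letters were found only in the window of S100a9 (at -236), among the 12 windows. S100a16 had TTCCTC in 1 of its windows and TGAATCA in the other, and the windows of S100a6 and S100b, as well as the other 3 of S100a3, matched none of the 4 motifs. These are matches of letters, not sites shown to be bound.

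Levels are given as log2 of the background-corrected signal relative to the 75th percentile of the array, so that 0 is the signal of that percentile. The detection limit of an array is its lowest signal that the software called well above background, and the 75th percentile lay 22.6-fold over this limit for P42, 16.5-fold for P55 and 34.3-fold for P69. On these arrays 71.4%, 59.6% and 68.7% of the probes were detected, respectively. The technical error of a difference between 2 arrays, from repeated spots of a probe, had an SD of 0.16 to 0.17 (log2), and of 0.25 to 0.28 for dim probes, below 8 times the detection limit. It leaves out the variation between mice, sorts and amplifications. All 11 macrophage markers measured were detected on each array, including Adgre1, which encodes the F480 antigen (4.82, 5.51 and 5.15). Itgam, which encodes CD11b, had levels of 8.95, 8.73 and 7.85, and differed from P42 by -0.23 at P55 and -1.10 at P69. The median log2 change of the 11 markers from P42 was -0.44 at P55 and -0.42 at P69. That of all genes was 0.22 and 0.15. The deposited files assign the later arrays in opposite ways: the P55 column of the table of processed values follows the scanner file of P69 (r = 1.00 over 36380 probes, compared to 0.729 for the P55 file), and the reverse holds for its P69 column. P55 and P69 below refer to the scanner files as deposited, and any statement that sets P55 apart from P69 would exchange these ages under the other assignment.

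**Figure D1:**
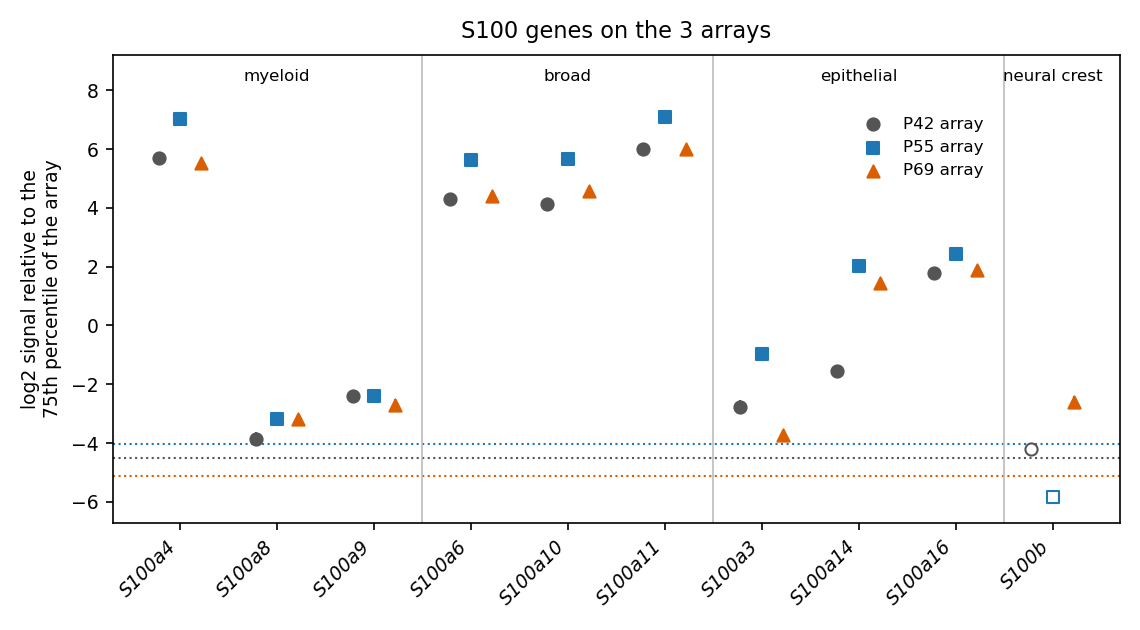
Level of each S100 gene (log2 signal relative to the 75th percentile of the array, vertical axis) on the P42, P55 and P69 arrays, by its main probe. Filled symbols were well above background and open symbols were not, dotted lines show the detection limit of each array in the same color, and vertical bars, mostly hidden by the symbols, are the SD of repeated spots; only the same gene can be compared between arrays. S100b is filled only at P69 (-2.59).

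Of the 10 members, 9 were detected on every array, and S100b only at P69. On the P55 array, 6 of the 9 members with a value were at least 2-fold higher than on the P42 array and 0 were lower, where 29.2% of all 15843 genes with a value were at least 2-fold higher and 16.9% lower. The 6 were S100a4, S100a6, S100a10, S100a11, S100a3 and S100a14. The median log2 change of the 9 members was 1.31, and that of all genes 0.22. On the P69 array, 2 of the 10 members were at least 2-fold higher than at P42 (S100a14 and S100b) and 0 were lower, against a background of 22.3% higher and 21.1% lower among 16184 genes. Here the members had a median of 0.10 and all genes 0.15. In these bulk samples, fewer cells of a type and less RNA per cell cannot be told apart.

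**Figure D2:**
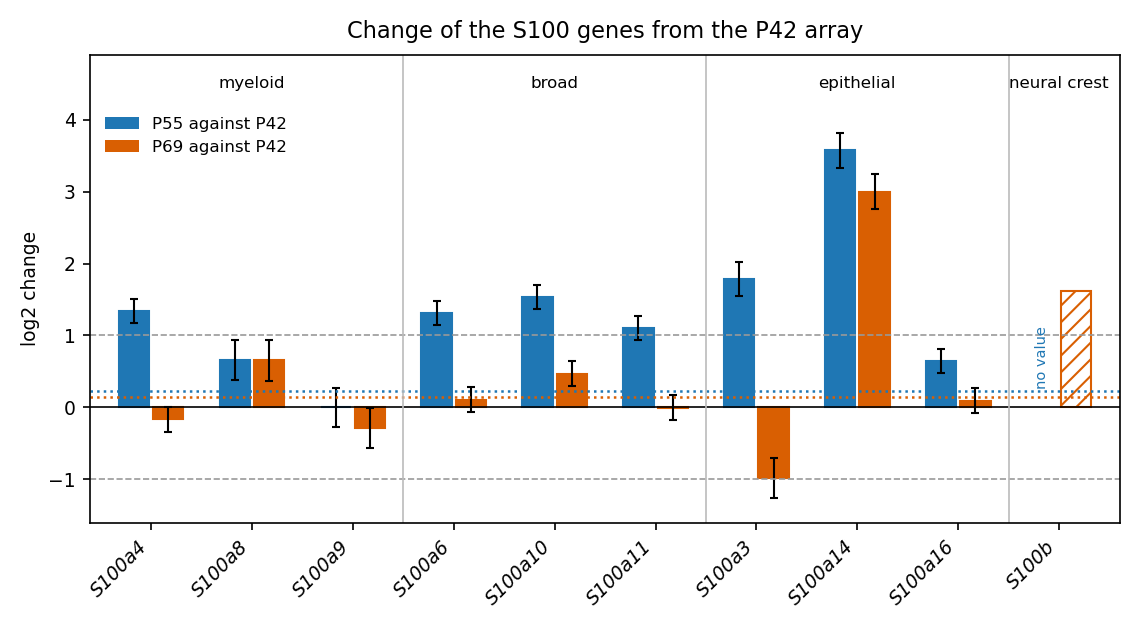
Log2 change of each S100 gene from the P42 array to the P55 array (blue) and the P69 array (orange), grouped as myeloid, broad, epithelial and neural crest (S100b). Error bars are the technical SD of the difference from repeated spots (the larger value for dim signals), the hatched bar is a lower bound, dashed lines mark 2-fold, and dotted lines the median of all genes. Only S100a14 passed 2-fold on both later arrays, with 3.57 and 3.00.

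S100a4, a member of the myeloid group that binds nonmuscle myosin and is found in motile cells such as macrophages and fibroblasts, had levels of 5.68 at P42, 7.02 at P55 and 5.52 at P69. It was thus 2.53-fold higher at P55 than at P42 (log2 change 1.34), whereas P69 and P42 differed by -0.16, no more than the technical SD. The second probe for this transcript had levels of 3.62, 5.42 and 4.30, with changes of 1.80 at P55 and 0.68 at P69. The probes therefore moved the same way at P55 and in opposite ways at P69, and the sign of the first probe at P69 also turned with the median scaling (0.36), with quantile normalization (0.35), without scaling (0.999) and with normexp (0.0132). Myh9, the heavy chain of the nonmuscle myosin, was higher by 1.31 at P55 and 0.56 at P69.

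S100a8 and S100a9 lay close to the detection limit. S100a8 had signals of 28.7, 54.5 and 101 at P42, P55 and P69, only 1.57, 1.81 and 3.75 times the detection limit. Its levels were -3.85, -3.19 and -3.20, giving changes of 0.66 at P55 and 0.65 at P69. Neither change reached 2-fold on this scale, but both depended on the processing. They were 1.22 and 1.17 with median scaling, 1.56 and 1.52 with quantile normalization, 0.92 and 1.82 without scaling, and 0.04 and -0.27 with normexp background correction. The software gave this spot an error of 17.9%, 15.1% and 11.6% of its signal, in the same order. S100a9, the other subunit of calprotectin, had levels of -2.40, -2.40 and -2.69. Its change was 0.001 at P55 and -0.29 at P69, the latter about the technical SD for dim probes, 0.28. Relative to the 75th percentile, both genes thus kept within 2-fold of their P42 level on both later arrays, which did not hold for S100a8 with the median or quantile scaling.

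Neutrophils carry the Gr1 antigen, which the sort selected against. Of 11 neutrophil markers measured, 8 were detected on each array, and the granule gene Elane on none of them. Mpo was detected only at P69 and Camp only at P55. The summed signal of the list, in units of the 75th percentile, was 92.5, 94.4 and 68.6, most of it from Csf3r at P42, and without Csf3r it was 10.2, 42.6 and 26.3. At P55, 4 of its genes were at least 2-fold higher and 1 was lower, compared to 3 higher and 3 lower at P69. Mmp9 was higher by 3.56 and 2.88, Retnlg by 1.71 and 1.16, and Cxcr2 by 2.16 and 1.34, whereas Ltf was lower (-2.52 and -2.34). Neutrophil markers thus moved both ways. The part of neutrophils in the values of S100a8 and S100a9 was not tested.

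The 3 members of the broad group, which are expressed in many cell types, were all at least 2-fold higher at P55 and within 2-fold of their P42 level at P69. S100a6, also called calcyclin, had levels of 4.31, 5.61 and 4.41, with a change of 1.31 (2.47-fold) at P55 and 0.10 at P69. S100a10, which does not need calcium and joins annexin A2 in a complex at the plasma membrane, had levels of 4.12, 5.65 and 4.58, and its changes were 1.53 (2.89-fold) and 0.47. Its P69 change exceeded the technical SD of 0.17 and lay between 0.26 and 1.63 across the 9 other settings for the same scanner files. S100a11, a partner of annexin A1, had levels of 6.00, 7.10 and 6.00, with a change of 1.10 (2.14-fold) at P55 and none at P69 beyond the technical error. All 3 stayed higher at P55 under every scaling and background setting of the P55 scanner file, with lowest values of 0.68, 0.90 and 0.73, respectively. These lowest values are all below 2-fold, and when the 75th percentile was taken over the probes detected on all arrays, 3 members in place of 6 were at least 2-fold higher at P55. Without any scaling the P69 changes of S100a6, S100a10 and S100a11 were 1.27, 1.63 and 1.16, where the median of all genes was 1.31.

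The known partners of S100 proteins were examined as a list of 12 genes, which included the annexins, receptors and intracellular ligands. At P55, 5 were at least 2-fold higher (Anxa1, Anxa2, Anxa11, Sugt1 and Myh9), where 29.2% of all genes were. At P69, 2 were (Anxa1 and Sugt1), where 22.3% of all genes were. No partner was at least 2-fold lower on either array, against 16.9% of all genes at P55 and 21.1% at P69. The median change of the 12 partners was 0.83 at P55 and 0.26 at P69. Anxa2, the partner of S100a10, had levels of 5.13, 6.53 and 5.35, higher by 1.40 at P55 and 0.22 at P69, beside the 1.53 and 0.47 of S100a10. Anxa1 had levels of 2.87, 4.63 and 4.61 and was higher on both later arrays (1.77 and 1.75), while S100a11 was higher only at P55. Anxa6 differed by 0.77 and -0.04, and Ahnak, a large scaffold that S100a10 and annexin A2 bind, by -0.01 and -0.49. Of the ligands of S100a6, the co-chaperone Sugt1 was higher on both arrays (1.58 and 2.07), and Cacybp differed by -0.32 and -0.03. Of the receptors for extracellular S100 proteins, Ager, which encodes RAGE, differed by -0.93 and -0.76, Cd36 by -0.29 and 0.55, and Bsg by 0.88 and 0.29. Tlr4, a receptor for S100a8 and S100a9, was not well above background at P55, where it was lower by at least 0.78 (log2 change -0.78), and it differed by 0.02 at P69.

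S100a14, an S100 protein of epithelial cells, had the largest change of the members. Its levels were -1.55 at P42, 2.02 at P55 and 1.45 at P69, so that both later arrays lay above P42. The signal was 7.71 times the detection limit at P42 and 66.8 and 93.6 times at P55 and P69. The log2 change of 3.57 at P55 corresponds to 11.9-fold, and 93 of the 13247 genes measured on both arrays rose more (0.702%). At P69 the change was 3.00, or 8.01-fold, and 132 of 14160 genes rose more (0.932%). S100a14 was the only member past 10-fold at P55, where 1.14% of all genes were at least 10-fold higher, and 0 members passed it at P69, where 0.686% did. No member was 10-fold lower, as 0.316% of genes were at P55 and 0.507% at P69. Across the 9 other settings for the same scanner files, its change lay between 3.03 and 4.13 at P55 and between 2.49 and 4.16 at P69. The later arrays differed from each other by -0.57 in this gene.

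S100a16, which is made in many epithelia, changed less. Its main probe had levels of 1.79, 2.44 and 1.88, with changes of 0.65 and 0.09, and its second probe had levels of -0.95, -0.04 and -0.36, with changes of 0.92 and 0.59. Both probes were higher at P55 by less than 2-fold, and they were further apart at P69. S100a14 and S100a16 are neighbors on the chromosome, and only the former passed 2-fold.

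Most keratinocyte markers moved in the direction of S100a14 on both later arrays. Trp63, the brightest of them, did not (0.01 and -0.68), and Itga6 hardly changed (0.01 and 0.06). All 15 markers were detected on each array, 13 were at least 2-fold higher at P55 and 12 at P69. The median changes of the list were 3.29 and 3.21. Krt5, a keratin of the basal layer, was higher by 3.97 and 3.32, and Krt10, a keratin of the suprabasal layers, by 3.29 and 3.21. The junction genes Cdh1 and Perp were higher by 4.53 and 4.56, and by 3.64 and 3.46. The summed signal of the list was 279, 410 and 280 in units of the 75th percentile, and without Trp63, whose probe gave most of it, 17.6, 146 and 117. Langerhans cells, the macrophage-like cells of the epidermis, had 3 of 4 markers higher on both arrays, among them Cd207 (2.99 and 2.13), while 0 of the fibroblast markers were higher and 3 were lower on each. The part of keratinocytes in the change of S100a14 was not tested.

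**Figure D3:**
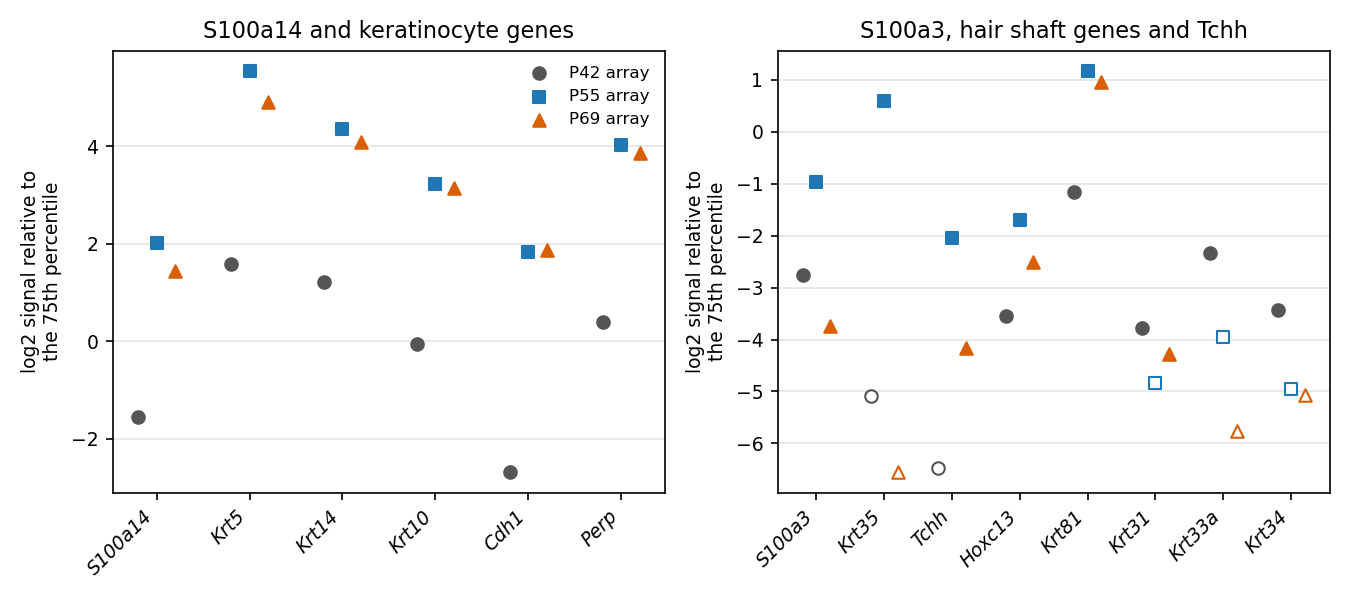
Levels (log2 signal relative to the 75th percentile of the array) of S100a14 beside 5 keratinocyte genes (left) and of S100a3 beside 6 hair shaft genes and Tchh (right) on the P42, P55 and P69 arrays. Filled symbols were well above background and open symbols were not. S100a14 and the 5 keratinocyte genes shown lie higher on both later arrays. S100a3, Krt35, Tchh, Hoxc13 and Krt81 lie highest at P55 and Krt31, Krt33a and Krt34 at P42.

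S100a3 is a protein of the hair cuticle, the outer scales of the hair shaft. Its levels were -2.76 at P42, -0.97 at P55 and -3.74 at P69, the P55 array being the highest and the P69 array the lowest. The signal was 3.35, 8.40 and 2.58 times the detection limit, so that the probe was dim at P42 and P69. It was 3.44-fold higher at P55 than at P42 (log2 change 1.78) and 1.97-fold lower at P69 (-0.98). Between the later arrays it differed by -2.76, or 6.79-fold, and 22 of 13541 genes fell more. It was thus the member with changes of opposite sign on the later arrays that both exceeded the technical SD of a dim probe. Without any scaling, the P69 change was 0.18.

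Of 8 hair shaft genes measured, 5 were detected at P42, 3 at P55 and 3 at P69, and their summed signal was 0.979, 4.26 and 2.26. Without Krt81, the brightest, the sum was 0.534, 2.00 and 0.309, and thus lowest at P69. Krt35, a keratin of the early hair shaft, was detected only at P55, at 0.60, at least 5.10 (log2) above P42 and it fell by at least 5.70 from P55 to P69. Tchh, which encodes trichohyalin of the inner root sheath and joins an S100 domain to a long repeat region, was not detected at P42. It stood at -2.04 at P55 and -4.16 at P69, at least 2.46 and 0.34 above P42. Hoxc13, a regulator of hair keratins, was higher by 1.85 and 1.04, and Krt81 by 2.34 and 2.13. S100a3 shared with Krt35, Tchh, Hoxc13 and Krt81 that the P55 array was highest. Krt31, Krt33a and Krt34, keratins of the hair shaft, were instead highest at P42. At P69 Krt31 differed from P42 by -0.50, while Krt33a and Krt34 were not detected there (bounds of -2.77 and -1.64), so that the fall of S100a3 at P69 lay beside hair shaft genes that moved both ways. The part of hair shaft cells in the change of S100a3 was not tested. Among the other genes with a fused S100 domain, Hrnr differed by 0.60 and 0.03, Flg2 was detected only at P69 and Crnn only at P42, and Rptn and Tchhl1 were not detected on any array.

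S100b, which marks Schwann cells and melanocytes and is also a ligand of RAGE, was not well above background at P42 (-4.21) or P55 (-5.82) and was detected at P69 (-2.59, or 5.71 times the detection limit). The P69 array was at least 3.07-fold above P42 (log2 change 1.62) and at least 2.74-fold above P55 (1.45), and no value can be given for P55 against P42. With normexp the change from P42 to P69 was 0.30. Schwann cell markers showed a different order, with a summed signal of 8.02, 5.92 and 4.81 over 5 genes, and Ngfr was lower on both later arrays (-2.28 and -3.16). The summed signal of the 6 melanocyte markers was 2.61, 6.18 and 6.25, and without Dct, the brightest, 1.90, 4.05 and 2.58. Of these genes, 4 were at least 2-fold higher and 0 lower at P55, compared to 3 and 1 at P69. Dct was higher by 1.58 and 2.37, Pmel by 2.57 and 1.88, and Tyrp1 by at least 2.34 and 2.19. Mitf was lower on both arrays (-0.68 and -0.42), and Mlana (1.28 and -1.51) and Tyr (0.31 and -0.999) only at P69. Neither list was thus raised at P69 alone, as S100b was. The part of either cell type in the signal of S100b was not tested.

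The epithelial and the myeloid members were then compared within each array, where the scaling constant cancels. At P55 the median change was 1.78 for S100a3, S100a14 and S100a16 and 0.66 for S100a4, S100a8 and S100a9, a difference of 1.12. At P69 the medians were 0.09 and -0.16, and the difference was 0.26. The difference lay in single genes. Within the epithelial group the changes ran from 0.65 to 3.57 at P55 and from -0.98 to 3.00 at P69, and within the myeloid group from 0.001 to 1.34 and from -0.29 to 0.65, so that the groups overlapped on both arrays. Without S100a3 the difference was 1.45 at P55 and 1.71 at P69. With the broad members counted as myeloid it was 0.58 and 0.04. At P69 quantile normalization turned its sign (-0.46). With 3 genes in each group and 1 array at each age, neither difference is a test of the groups.

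Compared with each other, the later arrays differed mostly in the members that were higher at P55. Of the 10 members, 5 were at least 2-fold lower at P69 than at P55 (S100a4, S100a6, S100a10, S100a11 and S100a3), where 11.3% of 14848 genes were, and 1 was at least 2-fold higher (S100b), where 7.86% were. At 10-fold, 0 members were higher or lower, with 0.0539% and 0.195% of genes past it. The changes were -1.51 for S100a4, -1.20 for S100a6, -1.07 for S100a10 and -1.10 for S100a11. The median of the members was -0.82, and that of all genes -0.15. Anxa2 and Anxa11 differed in the same direction (-1.18 and -1.11), while Anxa1 differed by -0.02. As the comparisons with P42 share arrays with this one, it is not independent of them.

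All members but S100b are among the 15 S100 genes on chromosome 3, and S100b lies on chromosome 10. In the order of the annotation the members S100a14, S100a16, S100a3, S100a4 and S100a6 come first, then S100a8 and S100a9. S100a11 and S100a10 come last. The window of S100a11 begins at base 93520246 and that of S100a9 at base 90695672, so S100a11 lies apart from the earlier members. The change did not follow this order in a single run. S100a14, with 3.57 at P55, lies between S100a13 (0.55) and S100a16 (0.65), and S100a5, between S100a4 and S100a6, was detected only at P42. S100a7l2, next to S100a9, had levels of -1.09, -2.90 and -4.37 and was lower on both arrays (-1.81 and -3.27). Of the 8 other S100 genes or S100-binding genes measured, 0 were at least 2-fold higher on either array, 1 of 5 with a value was lower at P55 and 2 of 6 at P69. Among all genes, 29.2% were higher and 16.9% lower at P55, and 22.3% and 21.1% at P69. At P55, S100pbp and S100a1 lay just below 2-fold. S100a1 differed by 0.96 and 0.25, S100a13 by 0.55 and -0.08, and S100pbp, which encodes a binding protein of S100P, by 0.999 and 0.919. S100a7a and S100z were not detected on any array, and S100g only at P69.

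**Figure D4:**
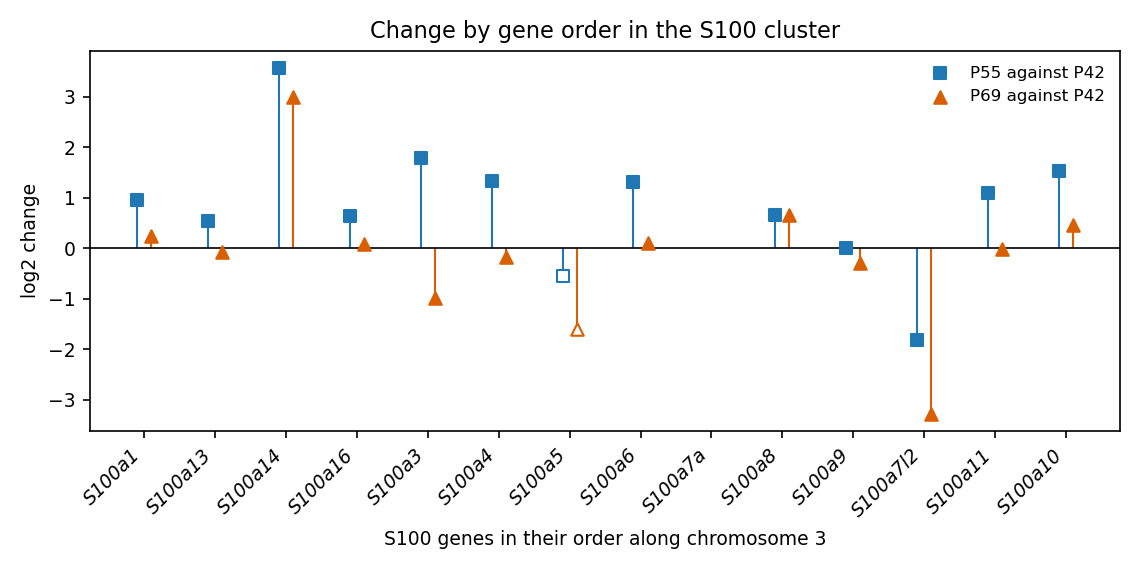
Log2 change from the P42 array to the P55 (blue squares) and P69 (orange triangles) arrays for the S100 genes of chromosome 3. The genes are placed by their order in the annotation and not by distance. Open symbols are bounds, and S100a7a has no value; the tallest pair is S100a14 (3.57 and 3.00) and the lowest S100a7l2 (-1.81 and -3.27).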

How the data were processed

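Skin macrophages were profiled on 3 Agilent arrays, 1 at each age. The authors deposited, per array, spot intensities on a linear scale, background-corrected by Feature Extraction 10.7.3.1 without scaling between arrays, and a log2 table of 36409 probes, whose normalization is not given in the sources used here; it lists 7 of the 10 members. Amplification of small amounts of RNA can distort levels. From the scanner intensities, control and outlier spots were left out, spots of a probe averaged, and log2 taken relative to the 75th percentile of the array (Python 3.11.15, pandas 2.3.3). Of 55681 probes, 26056 received a symbol. No spot was saturated. Detection required the software's above-background call in a share of 0.5 or more of a probe's spots; with 1 of 2 arrays detected, the change is a lower bound against the higher of the lowest detected signal and the dim probe's own. The brightest probe stood for a gene. Every member was named, with its other probes, every gene of the S100, partner and fused S100 lists, and marker genes that bear on a member. No column belonged to an unmatched sample. Alternatives covered scaling, normexp background correction (offset 50, limma 3.58.1), the log2 table, filters, probes, thresholds and the array assignment. The steps were checked on simulated data. The members and lists were chosen with earlier results of these data known. Sequences are from RefSeq (GRCm38.p6), the arrays' own annotation being of another build, so no probe position is given. A gene of the marker lists is not reported here.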

Additional observations from a re-analysis of the deposited data

Results flagged for a closer look

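S100a3, the hair cuticle gene, changed in opposite directions on the later arrays, 1.78 (log2) at P55 and -0.98 at P69 relative to P42. With 1 array at each age the difference was not tested, and the ages would exchange under the array assignment of the authors' table. The probe was dim at P42 and P69 (3.35 and 2.58 times the detection limit). Over the 9 other settings for the same scanner files, its P69 change ran from -1.19 to 0.18, and its sign turned only without scaling.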

How the results depend on the processing

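The number of arrays limits these values, since 1 array at each age gives no spread between pools. S100a8, S100a9, S100a3 and S100b are further limited by signals near the detection limit. No paired analysis was possible because each age has 1 array and the labels carry no shared replicate numbers; for the same reason no array could be left out. Of the member counts and group differences under the alternatives, 30 stayed close to their value, 17 moved and 1 reversed. Some of the 30 could not move. A constant scaling cancels in the group difference, and the detection filters left its genes unchanged, as all were detected on every array. Of the values of single members, 85 stayed close, 109 moved and 7 reversed. The 6 members at least 2-fold higher at P55 became 3 with the 75th percentile of probes detected on all arrays, 2 with the authors' table and with the array assignment swapped, and 1 at 10-fold. The 2 members at P69 became 7 without scaling and with the authors' table (6 higher, 1 lower), 6 with the assignment swapped, 1 with normexp and with detection required on both arrays, and 0 at 10-fold. The epithelial minus myeloid difference of 1.12 at P55 became 0.26 with the assignment swapped, 0.58 with the broad members counted as myeloid and 1.45 without S100a3. That of 0.26 at P69 became 0.0836 with the median over probes, 1.12 swapped, 0.0428 with the broad members, 1.71 without S100a3 and, reversed, -0.46 with quantile normalization. The authors' table gave no such difference, since S100a8, S100a9 and S100a16 are not listed there by these probes. At P55 S100a4 turned to -0.16 with the table and swapped, S100a3 to -0.98 with both, and S100a11 to -0.0019 with the table and -0.0027 swapped, and at P69 S100b turned to -1.61 with the table. The cause was not tested beyond the swap, which the table's own pairing makes. Relative to the 75th percentile, the median of all genes moved by -0.39 to 0.63 at P55 and by -0.20 to 1.16 at P69 with the other scalings.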
